A study of Mus musculus with 8 samples.

Results

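The SLC25 family of solute carriers was followed in hearts of newborn mice at postnatal day 1 (P1) and postnatal day 7 (P7). Members were all gene symbols of the deposited tables that begin with Slc25a. The adenine nucleotide translocases Slc25a4 and Slc25a5 and the carnitine carrier Slc25a20 were left out. This gave 41 members among 34275 distinct gene symbols. For a symbol with several loci, that of highest mean FPKM was taken.

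The samples were whole hearts, with the atrial appendages removed, from 4 P1 and 4 P7 male mice of the outbred strain Hsd:ICR(CD-1). Each heart came from a different animal and was sequenced as 1 library of RNA depleted of ribosomal RNA. The labels name no treatment, and the groups differ by age. Expression is given as FPKM, in which the fragment number is divided by transcript length and by the mapped fragments of the library. Levels of different genes can thus be set side by side.

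SLC25 proteins sit mostly in the inner mitochondrial membrane, which small charged molecules do not cross unaided. Each carrier exchanges or co-transports particular solutes between cytosol and matrix, among them phosphate, citrate, aspartate and glutamate, nucleotides, cofactors and iron. In heart muscle these carriers feed the oxidation of fuels, the export of ATP and the making of haem and iron-sulphur clusters.

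The tissue was as labelled by its defining genes, since the 6 cardiomyocyte markers summed to 10430 to 18914 FPKM in P1 and 13164 to 21105 in P7. Some hearts stood apart. P1 replicate 3 had 28662 loci at 1 FPKM or more, against 21382 to 22292 in the other P1 hearts. Ucp1, the uncoupling protein of brown fat, was at 3.08 FPKM in P7 replicate 2 and 10.3 in P7 replicate 4, and at most 0.147 in the other 6 hearts. The adipocyte genes Adipoq and Plin1 were highest in the same 2 hearts. The depth of the libraries is unknown from these values.

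Of the 41 members, 33 reached 1 FPKM in at least 1 heart and were tested. By limma 5 were higher in P7 hearts (Benjamini-Hochberg adjusted p under 0.05 over all 43172 tested loci and mean FPKM at least 1.5 times higher), and 0 were lower. They included Slc25a34, Slc25a1, the citrate carrier, Slc25a42, a carrier of coenzyme A, and Slc25a28, the iron carrier mitoferrin 2. The 5 are 15.2% of the tested members. Of the 17960 tested loci with a gene symbol 7.74% were called higher and 0.401% lower in P7. At an unadjusted p under 0.05 by limma, 12 members were higher and 0 lower. The share of all loci at this limit was not counted, so these 2 numbers are not read as a trait of the family. In whole hearts, more cells of a type and more RNA per cell cannot be told apart.

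In 11 members (33.3%) all P7 hearts lay above all P1 hearts, against 17.3% of tested loci with a symbol, and in 0 members all lay below, against 2.69%. On the log2(FPKM + 1) scale the log2 fold change was positive in 27 of the 33 members and negative in 6. Its median was 0.34, with a range from -0.18 to 1.94. Over all tested loci with a symbol the median was 0.19 and 67.6% were positive. Over all 43172 tested loci, most of them without a symbol, the median was -0.080 and 43.5% were positive. Of the 33 members 21 lay above the median of 0.19 of tested loci with a symbol. The count of calls also depended on the processing: 1 to 8 members were called in other settings, and with the hearts put on 1 scale by their median ratios it was 3 of 33 (9.09%, against 7.76% of loci with a symbol).

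**Figure D1:**
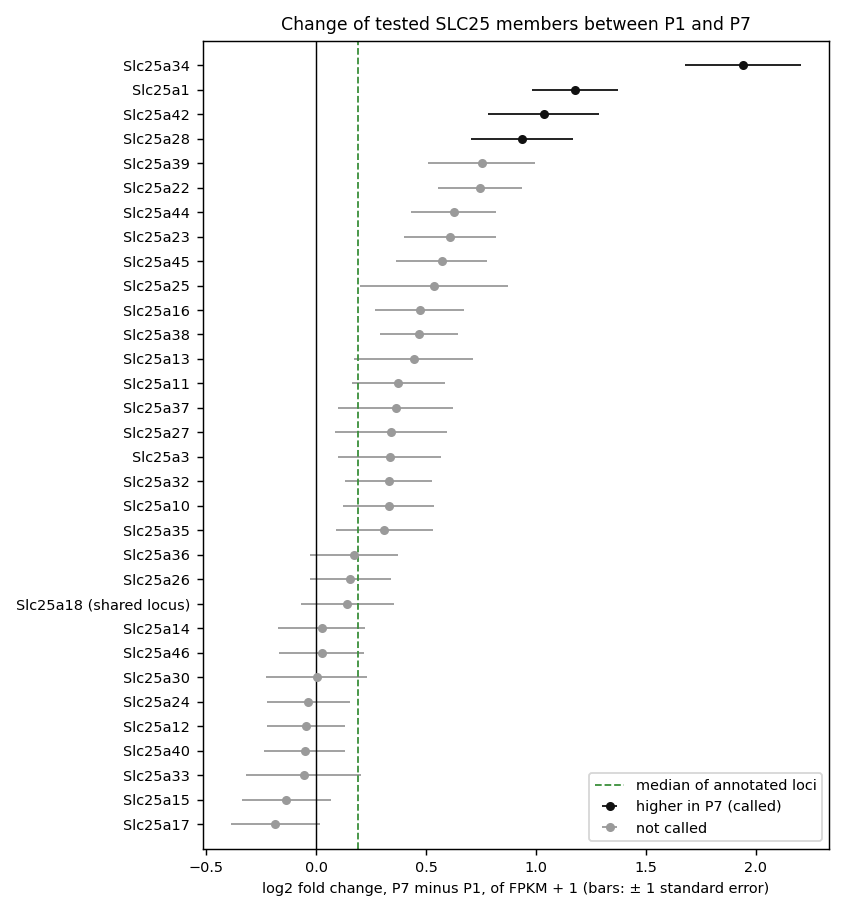
Log2 fold change (P7 minus P1, on log2(FPKM + 1)) of 32 of the 33 tested SLC25 members on the horizontal axis, with bars of 1 standard error from limma. Black points are 4 of the 5 members called higher in P7, grey points the 28 that were not called, and the dashed line marks the median of 0.19 over tested loci with a symbol.

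Slc25a34 is related to the yeast oxaloacetate carrier, and its solute in animals is not settled. It had the largest change of the members. Its FPKM was 6.19, 5.02, 2.36 and 5.60 in P1 replicates 1 to 4 and 24.1, 25.8, 18.7 and 14.7 in P7 replicates 1 to 4. The lowest P7 heart was above the highest P1 heart by more than the whole range of the P1 hearts. The mean went from 4.79 ± 1.69 to 20.8 ± 5.1 (SD, n = 4 each). Limma gave a log2 fold change of 1.94 ± 0.26 (SE) with an adjusted p of 0.00560. Its rank by mean FPKM among the members moved from 22 in P1 to 10 in P7. It was the only member called in each of the 20 other settings, where its log2 fold change ran from 1.54 to 2.15. The locus spans chr4:141618824-141623821 of GRCm38, the exact span of the gene in the GENCODE M21 annotation, and no other gene overlaps it.

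The starts of Slc25a34 and Slc25a1 are shown because these 2 members were called in most settings. Both windows are from RefSeq (GRCm38.p6, minus strand) and hold 250 bases before and 50 after the start, printed 5′ to 3′ along the gene. Capitals mark AAGGTCA or its complement TGACCTT, the motif to which estrogen-related receptors and other nuclear receptors can bind.

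Slc25a34, chr4:141623785-141624084: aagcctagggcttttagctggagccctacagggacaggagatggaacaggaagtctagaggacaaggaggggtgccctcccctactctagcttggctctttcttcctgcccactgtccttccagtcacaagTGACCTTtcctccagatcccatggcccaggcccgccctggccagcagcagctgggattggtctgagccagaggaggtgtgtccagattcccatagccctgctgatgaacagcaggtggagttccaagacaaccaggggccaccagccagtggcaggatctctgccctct

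Slc25a1, chr16:17928170-17928469: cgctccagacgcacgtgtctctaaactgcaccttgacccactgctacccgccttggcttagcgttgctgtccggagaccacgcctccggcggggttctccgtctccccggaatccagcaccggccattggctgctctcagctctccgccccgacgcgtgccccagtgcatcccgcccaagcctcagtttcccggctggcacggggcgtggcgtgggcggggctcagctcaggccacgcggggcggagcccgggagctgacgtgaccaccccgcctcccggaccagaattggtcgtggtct

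The letters occur once in the Slc25a34 window, 119 bases before the start, and not in the Slc25a1 window. RefSeq windows were found for 31 members, and 1 of them (3.23%) holds the letters on either strand, against 5.38% of the 27025 symbols with a window. A match describes these letters only. Among the 5 called members 4 have a window, and the letters are in 1 of these.

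Slc25a1 carries citrate from the matrix to the cytosol, where citrate feeds the making of fatty acids and sterols. Its locus is chr16:17925102-17928219. Its FPKM was 6.07, 5.10, 3.59 and 5.10 in P1 replicates 1 to 4 and 10.3, 13.6, 11.5 and 14.4 in P7 replicates 1 to 4. No P7 heart overlapped the P1 hearts. The mean went from 4.97 ± 1.02 to 12.4 ± 1.9 (SD, n = 4 each). Limma gave a log2 fold change of 1.18 ± 0.20 (SE) with an adjusted p of 0.0115. Slc25a1 was called in 17 of the 20 other settings.

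The highest P7 values of Slc25a1 were in replicates 2 and 4, the hearts in which Ucp1, Adipoq and Plin1 were highest. In P7 replicate 1, Slc25a1 was at 10.3, above every P1 heart. Ucp1, Adipoq and Plin1 are listed at 0 in that heart, while Cidea, the other gene of the brown fat list, was at 20.6 there. Cidea was at 8.22 to 15.5 in the P1 hearts, where Ucp1 was at most 0.147. Over the P7 hearts Cidea lay between 20.6 and 24.8, while Ucp1 ran from 0 to 10.3. The part of fat cells in the value of Slc25a1 was not tested. With P7 replicates 2 and 4 left out, 2 P7 hearts stand against 4. The log2 fold change of Slc25a1 was then 1.01 (limma adjusted p = 0.0723) and Slc25a34 was the only member called. Calls were fewer over all loci too, with 1.78% of tested loci with a symbol called higher, against 7.74% with all hearts.

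Slc25a42 (chr8:70184340-70212305) and Slc25a16 are both carriers linked to coenzyme A. Slc25a42 measured 10.1, 7.33, 4.69 and 11.0 FPKM in P1 replicates 1 to 4 and 17.6, 22.8, 13.7 and 16.1 in P7 replicates 1 to 4. The stages did not overlap. The mean went from 8.29 ± 2.87 to 17.6 ± 3.9 (SD, n = 4 each). Limma gave a log2 fold change of 1.03 ± 0.25 (SE) with an adjusted p of 0.0416. Slc25a16 had 13.6 ± 2.3 at P1 and 19.4 ± 4.2 at P7 (SD, n = 4 each), overlapped between the stages and was not called (limma adjusted p = 0.241).

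The mitoferrins Slc25a28 and Slc25a37 bring iron into the matrix for haem and iron-sulphur clusters, Slc25a37 mainly in red cell precursors. Slc25a28 (chr19:43663791-43674881) measured 15.4, 8.65, 7.03 and 12.4 FPKM in P1 replicates 1 to 4 and 22.9, 18.1, 22.8 and 20.0 in P7 replicates 1 to 4. All P7 hearts were above the P1 hearts, and the P7 hearts were closer together than those of any other tested member (coefficient of variation 11.1%). Limma gave 0.94 ± 0.23 (SE) as the log2 fold change, with an adjusted p of 0.0435. Slc25a37 ran from 3.92 to 9.08 in P1 and from 6.35 to 10.9 in P7 and was not called (limma adjusted p = 0.443). A second locus on the same chromosome carries the same symbol in capitals at a mean of 0.931 FPKM, so reads of this gene could be split. Antisense genes also overlap it, and whether counting used the strand is not given in the sources used here.

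**Figure D2:**
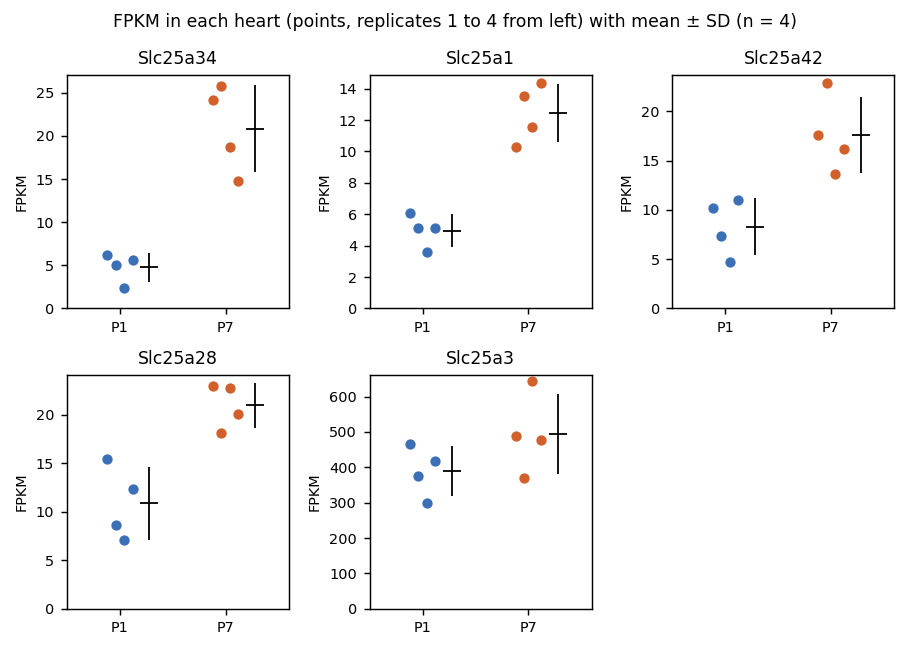
FPKM in each heart (points, replicates 1 to 4 from left to right) with the mean and SD (n = 4) for 4 of the 5 members called higher in P7 and for Slc25a3, the member of highest level. In these 4 called members no P7 heart overlaps a P1 heart, while the Slc25a3 values of 298 to 467 in P1 and 369 to 644 in P7 overlap.

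The threshold fell among like values. Slc25a28 was just inside it, and Slc25a22, a glutamate carrier, was just outside with 2.64 ± 0.50 FPKM at P1 and 5.11 ± 0.91 at P7 (SD, n = 4 each, log2 fold change 0.75, limma adjusted p = 0.0505). Slc25a42 was called in 6 and Slc25a28 in 8 of the 20 other settings, against 20 for Slc25a34 and 17 for Slc25a1. Slc25a42 lost its call in 7 and Slc25a28 in 6 of the 8 fits that leave out a heart.

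**Figure D3:**
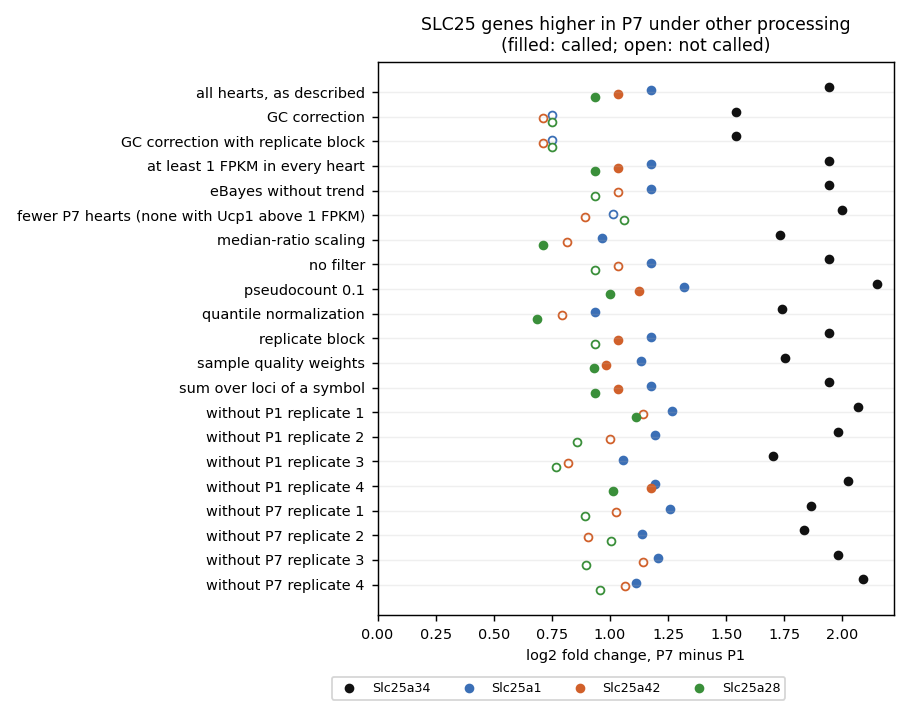
Log2 fold change (horizontal axis) of 4 of the 5 members called higher in P7 under each processing setting (vertical axis), filled where the member was called and open where it was not. Slc25a34 is called throughout, at 1.54 to 2.15, and after GC correction the other 3 plotted lie between 0.71 and 0.75 and are not called.

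The members that were called share a feature of their transcripts. The GC content of the longest transcript was 53.5% to 59.1% in the 5 called members and 39.4% to 60.6%, with a median of 48.8%, in the 28 others. The transcripts fell into 16 members above 53% (53.2% to 60.6%) and 17 members at 50.1% or less, a division made after the values were seen. All 11 members with all P7 hearts above all P1 hearts were among the 16. The median log2 fold change was 0.62 in the 16 and 0.16 in the 17.

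Correcting each heart for its own trend on GC content brought the medians to 0.33 and 0.31. The correction takes out any difference between the stages that follows GC content, whatever its source. The closer medians and the lost calls therefore do not show where the trend came from, which was not tested. After this correction Slc25a34 was still called, with a log2 fold change of 1.54 (limma adjusted p = 0.0169), and the other 4 were not. Slc25a1 had 0.75 (limma adjusted p = 0.0700), and Slc25a42 and Slc25a28 had 0.71 and 0.75. The same correction left 2.02% of loci with a symbol called higher, against 7.74% without it.

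**Figure D4:**
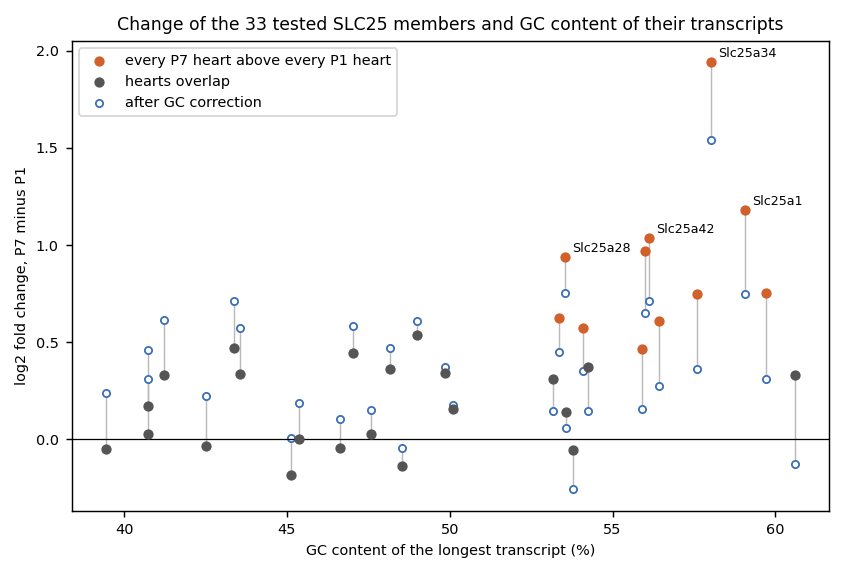
Log2 fold change of the 33 tested SLC25 members (vertical axis) against the GC content of their longest transcript in percent (horizontal axis). Filled points are the values as reported, orange where no P7 heart overlaps a P1 heart, and open points joined by a line are the same members after GC correction. All 11 orange points lie above 53% GC, and Slc25a34 stays highest after the correction, at 1.54.

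Levels of the members were led by a few carriers of phosphate, dicarboxylates and nucleotides. Slc25a4, Slc25a5, Slc25a20 and the relatives under other symbols are not in this order or in the sums. Slc25a3, the phosphate carrier that supplies ATP synthase, was the most abundant member in every heart. It had 467, 374, 298 and 417 FPKM in P1 replicates 1 to 4 and 488, 369, 644 and 477 in P7 replicates 1 to 4. The stages overlapped, and limma gave 0.34 ± 0.23 (SE) as the log2 fold change, with an adjusted p of 0.434.

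Next in order was Slc25a11, the 2-oxoglutarate and malate carrier of the malate-aspartate shuttle, at 98.6 ± 14.3 at P1 and 129 ± 31 at P7 (SD, n = 4 each). Slc25a36, a pyrimidine nucleotide carrier, followed at 73.9 ± 10.5 and 83.7 ± 14.3 (SD, n = 4 each). These first 3 kept their order in all 8 hearts. Slc25a12, the aspartate and glutamate carrier aralar, had 43.2 ± 3.9 and 42.0 ± 5.3 (SD, n = 4 each), and Slc25a46, an outer membrane protein of fusion and fission, had 40.6 ± 2.3 and 42.0 ± 8.9 (SD, n = 4 each). These 2 did not keep an order, with Slc25a12 above Slc25a46 in 6 of 8 hearts. None of the first 5 was called. Genes on the opposite strand overlap the loci of Slc25a11 (Rnf167), Slc25a36 (Gm16185), Slc25a12 (Gm13641) and Slc25a46 (B930094E09Rik). Whether counting used the strand is not given in the sources used here.

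Further down, Slc25a13 at a mean of 32.5 over the 8 hearts and Slc25a39 at 30.6 changed places, with Slc25a13 higher in 5 of 8 hearts. From Slc25a16 (16.5) through Slc25a28 (15.9), Slc25a17 (13.0), Slc25a42 (12.9) and Slc25a34 (12.8) each member was above the next in only 4 or 5 of the 8 hearts, and some neighbours changed places between the stages. Slc25a28 was above Slc25a17 in 1 of 4 P1 and 4 of 4 P7 hearts. Slc25a17 was above Slc25a42, and Slc25a42 above Slc25a34, in 4 of 4 P1 and 1 of 4 P7 hearts. Of the 40 members with a locus of their own 2 had a mean of at least 100 FPKM, 12 lay between 10 and 100, 18 between 1 and 10, and 8 under 1.

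Summed over these 40 members the FPKM was 681 to 974 at P1 and 888 to 1377 at P7, with overlap. Slc25a3 made up 45.5% ± 2.3 of the sum at P1 and 44.6% ± 2.2 at P7 (SD, n = 4 each). The share of Slc25a34 went from 0.548% ± 0.136 to 1.97% ± 0.74, and that of Slc25a1 from 0.580% ± 0.060 to 1.17% ± 0.33 (SD, n = 4 each). Neither share overlapped between the stages. A share does not depend on the scale of a heart.

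**Figure D5:**
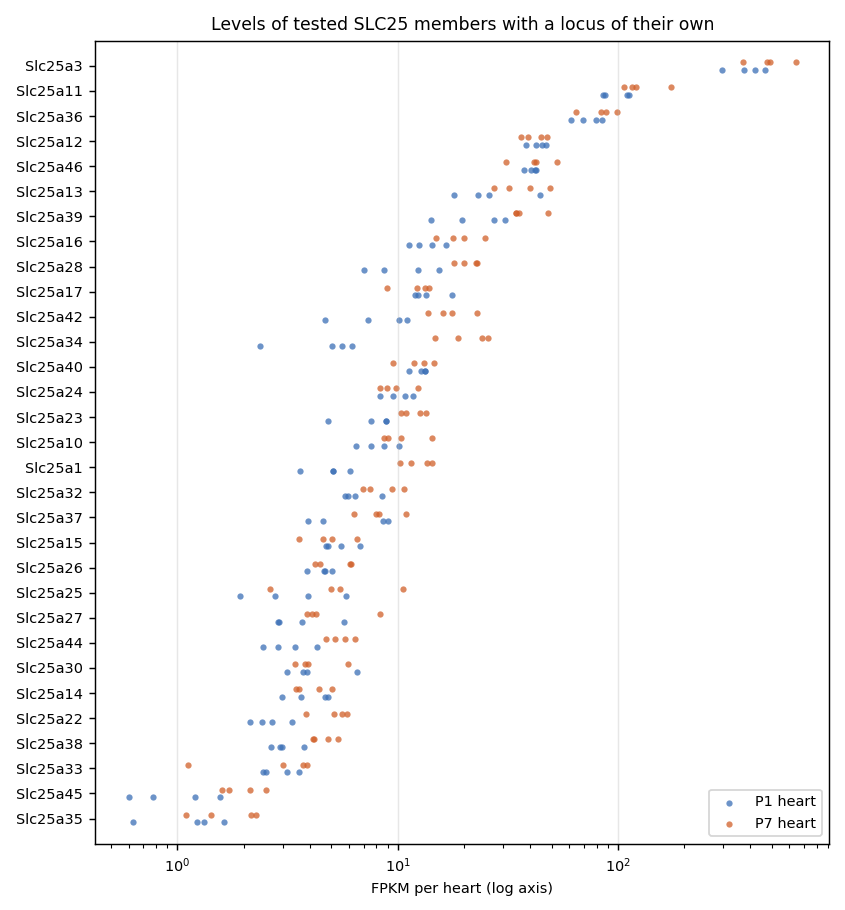
FPKM of 31 of the 32 tested SLC25 members with a locus of their own, in each P1 heart (blue) and P7 heart (orange) on a log axis, ordered by the mean over the 8 hearts. Slc25a3 lies between 298 and 644 in all hearts, and Slc25a34 lies between 2.36 and 6.19 in P1 and between 14.7 and 25.8 in P7.

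Among carriers of citrate, phosphate and dicarboxylates 4 of 5 members were tested, all 4 had positive log2 fold changes, and Slc25a1 alone was called. With GC correction the log2 fold change of Slc25a10 in this group was -0.13. Among amino acid carriers 7 of 9 were tested and 0 called. Slc25a12 had a log2 fold change of -0.05 and Slc25a13, citrin, one of 0.44, from 27.9 ± 11.4 to 37.1 ± 9.5 FPKM (SD, n = 4 each, limma adjusted p = 0.390). Slc25a44, a carrier of branched-chain amino acids, and Slc25a38, a glycine carrier needed for haem, were higher in all P7 hearts than in all P1 hearts without being called (limma adjusted p = 0.101 and 0.182). These 2, with Slc25a10 above and Slc25a23 and Slc25a45 below, are named after their values were seen.

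The value given for Slc25a18, a second glutamate carrier, cannot be ascribed to it. The locus of highest mean (93.7 FPKM) also carries Atp6v1e1, a subunit of the proton pump V-ATPase that lies on the opposite strand. A locus named for Slc25a18 alone had only 0.440 ± 0.216 FPKM at P1 and 0.649 ± 0.144 at P7 (SD, n = 4 each), under the limit for testing. By this locus 32 members would be tested with the same 5 called.

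Among nucleotide carriers 6 of 8 were tested, 0 were called, and the log2 fold changes were evenly divided, with 3 positive and 3 negative. Slc25a17, the peroxisomal carrier of coenzyme A and nucleotides, had the lowest log2 fold change of the 33 tested members, -0.18, from 13.9 ± 2.7 to 12.1 ± 2.3 FPKM (SD, n = 4 each, limma adjusted p = 0.589). Of the ATP-Mg and phosphate carriers, Slc25a24 had 10.1 ± 1.5 and 9.84 ± 1.80, and Slc25a25 had 3.60 ± 1.69 and 5.92 ± 3.35 (SD, n = 4 each). Of the tested members Slc25a25 varied most within both stages, with coefficients of variation of 46.8% and 56.5% against medians of 20.6% and 21.2%. Slc25a23, of the same kind, was higher in all P7 hearts than in all P1 hearts (log2 fold change 0.61, limma adjusted p = 0.139).

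Of the 7 carriers of cofactors, vitamins and glutathione all were tested, and 6 had positive log2 fold changes. Slc25a39 and Slc25a40 import glutathione. Slc25a39 had 30.7, 19.7, 14.2 and 27.3 FPKM in P1 replicates 1 to 4 and 34.4, 34.6, 48.0 and 35.7 in P7 replicates 1 to 4. No P7 heart overlapped the P1 hearts, and the gene missed the threshold (log2 fold change 0.75, limma adjusted p = 0.114). The locus of Slc25a39 extends beyond the annotated gene. Those of other members do so too, among them Slc25a11, Slc25a36, Slc25a40, Slc25a23 and Slc25a25. Slc25a40 had 12.7 ± 1.0 at P1 and 12.3 ± 2.2 at P7 (SD, n = 4 each).

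The 3 members like uncoupling proteins, Slc25a14, Slc25a27 and Slc25a30, had log2 fold changes of 0.00 to 0.34 and were not called. Of the 7 members in the outer membrane or without a settled solute, 4 were tested and Slc25a34 was called. Slc25a45 was at 1.04 ± 0.43 and 2.00 ± 0.43 FPKM (SD, n = 4 each) without overlap and was not called (limma adjusted p = 0.165). The 8 members that never reached 1 FPKM were Slc25a2, Slc25a21, Slc25a29, Slc25a31, Slc25a41, Slc25a43, Slc25a47 and Slc25a48, with values from 0 to 0.976. They include Slc25a31, a translocase of ADP and ATP known from germ cells, and Slc25a47, known from liver.

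Carriers of the same solute, or close relatives, were compared as ratios within each heart, where the scale of the heart matters little. The log2 ratio of Slc25a39 to Slc25a40 was 1.14, 0.52, 0.31 and 1.04 at P1 and 1.32, 1.76, 1.65 and 1.51 at P7. The ratio of Slc25a28 to Slc25a37 was 0.78, 0.97, 0.53 and 0.41 at P1 and 1.42, 1.38, 1.00 and 1.19 at P7. Neither ratio overlapped between the stages.

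The ratios differed by 0.80 and 0.57, each with an exact two-sided permutation p of 0.0286, the smallest that 4 against 4 hearts can give. Adjusted over the 7 pairs both had p = 0.10, above 0.05 (exact permutation test). The transcripts of these pairs differ in GC content, at 59.7% for Slc25a39 against 39.4% for Slc25a40 and 53.5% for Slc25a28 against 48.2% for Slc25a37. With each heart corrected for GC content the ratios overlapped between the stages and differed by 0.076 (exact permutation p = 0.629, adjusted 0.733) and 0.28 (exact permutation p = 0.143, adjusted 0.333). Slc25a12 to Slc25a13 differed by -0.49 (exact permutation p = 0.114, adjusted 0.16) and Slc25a42 to Slc25a16 by 0.56 (exact permutation p = 0.114, adjusted 0.16). Slc25a25 to Slc25a24 differed by 0.57 (exact permutation p = 0.143) and Slc25a36 to Slc25a33 by 0.23 (exact permutation p = 0.429). After GC correction Slc25a42 to Slc25a16 differed by 0.00041 and Slc25a36 to Slc25a33 by 0.71 (exact permutation p = 1.0 and 0.0571, adjusted 1.0 and 0.333). The pair of Slc25a22 and Slc25a18 rests on the shared locus and is not read. At the locus named for Slc25a18 alone, with values under 1 FPKM, it differed by 0.54 (exact permutation p = 0.0857, adjusted 0.16).

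Genes that work beside the carriers were taken from lists chosen with earlier results of these data known. Of all tested loci with a symbol 7.74% were called higher in P7, and the counts of calls in these lists are not read as traits of them. Carriers are brought into the inner membrane by the TOM complex and the small Tim proteins. Of 15 tested genes of this import route 0 were called. The most abundant were Timm8b, at 235 ± 18 and 249 ± 64 FPKM, and Tomm7, at 183 ± 65 and 211 ± 27 (SD, n = 4 each). The receptor Tomm70a, named after its values were seen, was the only gene of the 5 lists described here and below that was lower in all P7 hearts than in all P1 hearts, at 49.3 ± 4.1 and 36.4 ± 6.6 (SD, n = 4 each, log2 fold change -0.44, limma adjusted p = 0.234).

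The malate-aspartate and glycerol phosphate shuttles move the electrons of cytosolic NADH into mitochondria. Of their 7 enzymes 1 was called, Gpd1, the cytosolic glycerol-3-phosphate dehydrogenase. Its FPKM was 4.36, 2.42, 2.16 and 4.94 in P1 replicates 1 to 4 and 9.31, 14.3, 15.6 and 15.2 in P7 replicates 1 to 4. The stages did not overlap (log2 fold change 1.74 ± 0.25 SE, adjusted p = 0.00667 by limma). The malate dehydrogenases Mdh1 and Mdh2, which work with Slc25a11, had log2 fold changes of -0.26 and 0.50 (limma adjusted p = 0.528 and 0.282).

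Of the 5 genes of the pyruvate carrier and the porins 0 were called, with Mpc2 at 529 ± 73 and 671 ± 216 FPKM and Vdac2 at 370 ± 91 and 341 ± 76 (SD, n = 4 each). Of 19 enzymes that use carried solutes 1 was called, Coasy, which completes the synthesis of coenzyme A, the cargo of Slc25a42. Coasy had 3.26 ± 1.26 at P1 and 7.81 ± 1.03 at P7 (SD, n = 4 each), without overlap (log2 fold change 1.09 ± 0.23 SE, adjusted p = 0.0233 by limma). In this list Cs, citrate synthase, was among the most abundant and was not called (limma adjusted p = 0.372).

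Of 7 SLC25 relatives listed under other symbols, 2 were called, both uncoupling proteins. Ucp2 was at 30.1, 26.8, 22.8 and 25.3 FPKM in P1 replicates 1 to 4 and 70.2, 67.5, 78.7 and 58.6 in P7 replicates 1 to 4. Ucp3 went from 2.02 ± 1.39 to 6.72 ± 0.83 (SD, n = 4 each). Neither overlapped between the stages, and limma gave log2 fold changes of 1.36 ± 0.18 (SE, adjusted p = 0.00553) and 1.45 ± 0.27 (SE, adjusted p = 0.0185). Mtch1 and Mtch2, outer membrane relatives, were the most abundant of these genes and were not called (limma adjusted p = 0.0814 and 0.489).

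Hearts of 1 stage differed from each other in a way that many members shared with other loci. P1 replicate 3 was the lowest P1 heart for 25 of the 33 tested members and P1 replicate 4 the highest for 20. In P7 replicate 3 was the highest for 20 and replicate 2 the lowest for 17. The scale of the hearts by median ratios over loci with a symbol had the same order. In P1 it was lowest in replicate 3 (0.801) and highest in replicate 4 (1.16). In P7 it was highest in replicate 3 (1.27) and lowest in replicate 2 (0.942). Without P1 replicate 3 Slc25a34 and Slc25a1 were the only members called, with 2.22% of loci with a symbol called higher. Without P1 replicate 4 there were 7, with 15.4% of loci with a symbol.

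The 6 cardiomyocyte markers had 0 calls. Of 5 fibroblast markers 2 were called higher (Col1a1 and Dcn; sums of 632 to 1226 and 1104 to 1406) and of 4 endothelial markers 1 (Cdh5; 58.6 to 109.8 and 91.1 to 143). The 4 brown fat markers had 1 call, Cidea, which was higher in all P7 hearts, and summed to 8.30 to 16.2 in P1 and 20.6 to 39.3 in P7. The lowest P7 sum, 20.6 in replicate 1, was Cidea alone. Ucp1, Adipoq and Plin1 overlapped between the stages. None of the 8 erythroid markers was called, with sums of 1637 to 3853 and 3745 to 5027. Dividing cell markers (101 to 130 and 66.9 to 154), leukocyte markers (4.68 to 7.97 and 7.48 to 9.87), smooth muscle markers (242 to 509 and 127 to 241) and Schwann cell markers (2.26 to 4.02 and 1.24 to 7.26) had 0 calls. Most of the smooth muscle sum was Acta2, at 281 ± 116 and 148 ± 47 (SD, n = 4 each), with all P7 hearts below all P1 hearts. Myh11 had means of 2.03 and 3.13 and Tagln of 34.6 and 33.7, both with overlap. The part of any of these cell types in the changes of the members was not tested.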

How the data were processed

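Hearts were processed by the authors with TRIzol and a ScriptSeq v2 kit, and 1 library per heart was sequenced in paired-end mode. For the authors, a service provider aligned reads to GRCm38, counted them over Ensembl-annotated and assembled loci and scaled them. The aligner is not given in the sources used here. The deposited values are FPKM per locus, 80155 loci per heart, of which 39614 carry a gene symbol. No fragment counts were used, so the depth behind a value is unknown. Positions are printed 1-based, while deposited starts are 0-based.

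The 43172 loci that reached 1 FPKM in any heart were fitted as log2(FPKM + pseudocount of 1) with limma 3.58.1 in R 4.3.3 (lmFit, then eBayes with a trend), all 8 hearts together and no covariate. Benjamini-Hochberg adjustment ran over all of them. Calls needed an adjusted p under 0.05 and mean FPKM differing at least 1.5 times. Fold changes on this scale understate the change of low genes. Ratios of related carriers were compared with an exact two-sided permutation test. Symbols were matched without regard to case, and joined symbols were split. GC content and gene spans came from GENCODE M21 (GRCm38). Other steps used Python 3.11.15 with scipy 1.17.1, pandas 2.3.3 and numpy 2.4.6. The fit was tested on simulated data.

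Members and lists were chosen with earlier results of these data known. Named with values were the called members, the 12 of highest mean, the members of the 7 pairs, and from the other lists the called genes and the 2 of highest mean. The values of 1 called member and 1 gene of these lists are not reported here, and both stay in the counts. Other settings were scaling by median ratios, quantile normalization, a pseudocount of 0.1, loci unfiltered or with 1 FPKM in all hearts, quality weights per sample, a block on the replicate number, no eBayes trend, loci summed per symbol, GC correction (lowess, span 0.3; GC content known for 85.9% of tested loci with a symbol) alone and with the block, and each heart left out. Leaving out the 2 P7 hearts with Ucp1, Slc25a18 at its own locus, and GC correction of the ratios were added after the data were seen. Protein sequences and promoters of members without a RefSeq window were not used here.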

Additional observations from a re-analysis of the deposited data

Results flagged for a closer look

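Among the 4 P7 hearts, Slc25a39, the glutathione carrier, stood far from the rest in replicate 3, with 48.0 FPKM against 34.4 to 35.7 in the other 3 hearts. The gap to its nearest neighbour was 0.903 of the range of the 4 hearts, above the critical 95% value of Dixon's test for 4 samples. This was 1 of 42 groups of hearts examined, over the members named with values, and chance at 1 in 20 would give 2.1.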

How the results depend on the processing

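The count of SLC25 members higher in P7, 5 as reported, was 5 with a pseudocount of 0.1 and 6 with loci summed over a symbol. It was 8 with at least 1 FPKM in every heart and with sample quality weights, 3 with median-ratio scaling and quantile normalization, 2 with no filter and with eBayes without trend, and 1 with GC correction, alone or with the replicate block, and without P7 replicates 2 and 4. Leaving out 1 heart gave 2 to 7, with 7 without P1 replicate 4, 3 without P1 replicate 1 and 2 without any other heart. No member was lower in any setting. The share of all loci with a symbol called higher moved too. It was 7.74% as reported (members 15.2%), 15.4% with quality weights (24.2%) and 15.4% without P1 replicate 4 (21.2%). It was highest with the filter on every heart, and 0.874% to 5.48% without any other heart. Without P7 replicates 2 and 4 it was 1.78% (members 3.03%). With median-ratio scaling and quantile normalization it was 7.76% and 8.06%, while the members fell to 9.09% and 8.82%. The count alone is not read as a trait of the members. Fitted as a replicate block, the replicate numbers gave 3 (Slc25a34, Slc25a1 and Slc25a42). The numbers did not pair the hearts, since deviations of same-numbered hearts correlated at 0.0581, 0.218, -0.276 and -0.124. Median-ratio scaling moved the median of loci with a symbol from 0.19 to 0.00 and that of the members from 0.34 to 0.15, and the share of higher among all called loci with a symbol from 95.1% to 69.1% (69.4% with quantile normalization).

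The shuttle enzymes went from 1 call to 2 with the filter on every heart and with quality weights, and to 1 to 2 without 1 heart. The enzymes that use carried solutes, with 1 call, had 0 with GC correction (alone or with the block), no filter and without P7 replicates 2 and 4, 2 with median-ratio scaling and quantile normalization, 3 with quality weights, 4 with the filter on every heart and 0 to 3 without 1 heart. The relatives under other symbols had 1 call without P7 replicates 2 and 4 and 1 to 3 without 1 heart. The import list and the list of pyruvate carrier and porins kept 0. The 7 ratios kept their directions and stayed uncalled. The smallest exact permutation p, 0.0286, passes adjustment only where most of the 7 pairs reach it, so staying uncalled says little about them. The sizes of the ratios moved with GC correction, from 0.80 to 0.076 for Slc25a39 to Slc25a40, from 0.57 to 0.28 for Slc25a28 to Slc25a37, from 0.56 to 0.00041 for Slc25a42 to Slc25a16 and from 0.23 to 0.71 for Slc25a36 to Slc25a33.

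Members that were not called changed sign. With GC correction, alone or with the block, log2 fold changes became 0.10 for Slc25a12, 0.0055 for Slc25a17, 0.23 for Slc25a24 and 0.24 for Slc25a40. In the other direction, Slc25a10 went from 0.33 to -0.13 with GC correction. With median-ratio scaling and quantile normalization they became -0.10 and -0.088 for Slc25a18, -0.069 and -0.058 for Slc25a36, and -0.21 and -0.22 for Slc25a46. Without P7 replicates 2 and 4 they became 0.10 for Slc25a12, 0.13 for Slc25a24, 0.30 for Slc25a33 and 0.13 for Slc25a40. Without 1 heart they ran from -0.11 to 0.020 for Slc25a12, -0.14 to 0.034 for Slc25a24, -0.18 to 0.22 for Slc25a33, -0.14 to 0.056 for Slc25a40 and -0.091 to 0.16 for Slc25a46. The cause was not tested. With 4 hearts a stage and no counts, precision rests on the spread between hearts.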
